A study of Mus musculus with 6 samples.

Results

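Canonical Wnt signalling in bone begins when a Wnt ligand brings a Frizzled receptor and the co-receptor LRP5 or LRP6 together, which spares β-catenin from degradation and favours bone formation. Osteocytes, the cells buried in the bone matrix, are the main source of sclerostin, the product of *Sost*, which binds LRP5 and LRP6 and blocks this step. Sclerostin is one of a larger group of secreted inhibitors. Its relative Sostdc1 and the Dickkopf protein Dkk1 also occupy the co-receptors, while the secreted Frizzled-related proteins and Wif1 bind the Wnt ligands themselves.

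The expression of 10 genes of this group was examined in cortical bone treated with parathyroid hormone (PTH). They were *Sost*, *Sostdc1*, *Dkk1*, *Dkk2*, *Dkk3*, *Sfrp1*, *Sfrp2*, *Sfrp4*, *Frzb* and *Wif1*, taken by gene symbol with every probe of each. The list was drawn up with earlier results of these data known. They hold 12 of the 45281 probes and 10 of the 31508 gene symbols of the array. *Dkk3* had 3 probes and each other gene had 1.

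The samples were bone tubes, the shafts of tibia and femur of C57BL6 mice aged 3 months, cleared of marrow by flushing and of surface cells by collagenase and trypsin digestion. The control tubes were left untreated and the PTH tubes received 250 nM Pth 1-34, an active fragment of the hormone, for 24 hours, after all tubes had stood overnight in medium with fetal calf serum. Each array, an Illumina bead array for mouse, received the RNA of a preparation made from the bones of several mice, and 3 control and 3 PTH arrays were run. The labels do not say whether the arrays of a group come from separate cultures, so p-values measure the spread between these preparations, and the number of arrays limits their precision.

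Values are the normalized log2 signal of a probe after background correction. A probe was taken as above background on an array when its detection p was under 0.05, and was tested when this held on at least 3 of the 6 arrays. A gene was represented by its brightest tested probe. It counted as called when its adjusted p was under 0.05 (limma, Benjamini-Hochberg over the 16214 probes tested) and its change at least 1.5-fold. Between 34.2% and 38.4% of all probes were above background on an array. Of 7 osteocyte marker genes, 6 were above background on every array, among them *Dmp1*, *Mepe* and *Phex*, and *Fgf23* was above it on none. Hemoglobin transcripts from blood or marrow were also present on all 6 arrays.

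The stretch of 250 bases before the annotated transcription start is shown for *Sost* and *Dkk1*, the pair of co-receptor blockers that were above background on every control array. Both are on the minus strand of the RefSeq assembly GRCm38.p6, *Sost* at chr11:101967016-101967265 and *Dkk1* at chr19:30549497-30549746, and are written 5′ to 3′ along the gene. Capitals mark every match, on either strand, to TGACG, the core of the cAMP response element through which PTH receptor signalling can act, to CTTTGA or CTTTGT, which the β-catenin partners TCF and LEF recognise, and to the TATA motif TATAAA.
Sost: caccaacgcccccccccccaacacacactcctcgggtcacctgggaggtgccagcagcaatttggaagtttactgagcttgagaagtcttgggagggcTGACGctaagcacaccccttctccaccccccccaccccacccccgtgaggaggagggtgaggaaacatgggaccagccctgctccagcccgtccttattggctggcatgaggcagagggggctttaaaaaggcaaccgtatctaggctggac
Dkk1: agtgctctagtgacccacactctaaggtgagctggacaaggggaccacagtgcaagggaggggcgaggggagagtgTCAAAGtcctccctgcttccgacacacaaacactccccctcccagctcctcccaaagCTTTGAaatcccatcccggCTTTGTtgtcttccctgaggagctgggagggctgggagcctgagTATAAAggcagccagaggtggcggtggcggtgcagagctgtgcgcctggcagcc
The *Sost* window held TGACG once, 152 bases before the start. The *Dkk1* window held CTTTGA on the other strand at 174 and on the gene strand at 117 bases before the start, CTTTGT at 98 and TATAAA at 54. Over the 32817 promoter windows of this length, 17.7% held TGACG, 13.8% CTTTGA, 16.5% CTTTGT and 12.4% TATAAA on either strand. The full element TGACGTCA, which contains TGACG, was in 1.55% of windows and in neither of these. Such matches describe letters and are not evidence of a bound site. RefSeq windows were matched for 6 of the 10 genes and not for *Dkk3*, *Sfrp1*, *Sfrp4* and *Sostdc1*.

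Among the 10 genes *Sfrp4* was higher with PTH and was the only one called, at 2.49-fold. The mean signal of *Sost* was 2.32-fold lower with PTH, but only 1 of its 3 PTH arrays was above background, its groups overlapped and it was not called. This fold depends on the background correction, without which the log2 change was -0.46 in place of -1.21. *Dkk3* was 1.32-fold higher in the mean with every PTH array above every control array, and it was not called either. *Dkk1*, *Sfrp1*, *Sfrp2* and *Wif1* were not called, and *Sostdc1*, *Dkk2* and *Frzb* were above background on no array.

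Of the 7 genes tested, 1 was called, against 1.73% of all 11979 genes tested. In the direction of higher with PTH 1 was called, against 0.685% of all genes, and in the direction of lower limma called none, against 1.04%, and neither did the methods' t-test. Of the 7, 3 had an unadjusted p under 0.05 in limma, *Sost* lower and *Dkk3* and *Sfrp4* higher with PTH, a mark passed by 14.9% of all genes. The groups did not overlap for 2 of the 7 genes, *Dkk3* and *Sfrp4*, against 21.9% of all genes, which leaves the members near the background. The mean differed by at least 1.5-fold for 3 of the 7, *Sost*, *Dkk1* and *Sfrp4*, as it did for 5.42% of all genes, and *Dkk1* passed this mark only just, at 1.52-fold. The median log2 change of the 7 was -0.10 beside 0.01 over all genes, with 5 lower and 2 higher in the mean, where 49.2% of all genes were lower. The 7 are the genes bright enough to be tested and not the whole group.

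**Figure D1:**
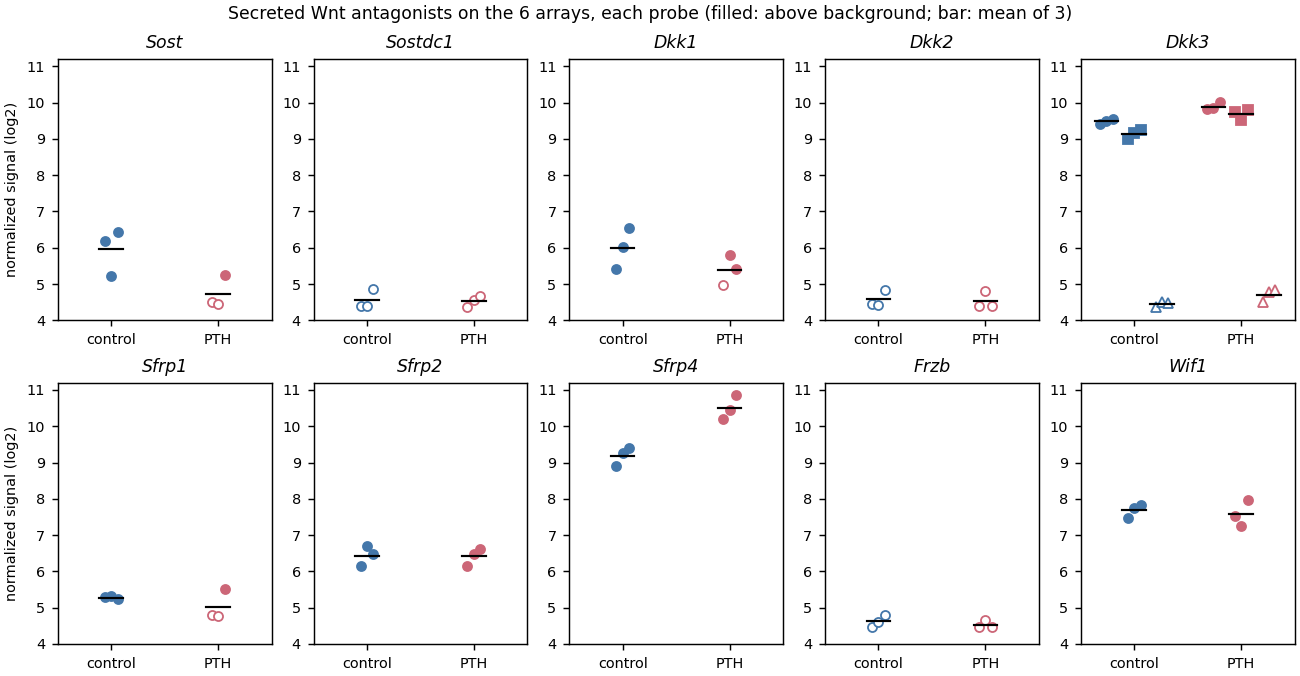
Normalized log2 signal (vertical axis) of every probe of the 10 genes on the 3 control and 3 PTH arrays. Filled symbols are above background, open symbols are not, bars are group means, and the 3 probes of *Dkk3* have 3 symbol shapes. *Sfrp4* lies between 8.92 and 9.39 on control and between 10.21 and 10.85 on PTH arrays, whereas *Sost* is at the background on 2 PTH arrays and above it on the third.

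*Sost* encodes sclerostin, which binds the first propeller domains of LRP5 and LRP6. Its normalized log2 signal was 6.19, 5.23 and 6.44 on control arrays 1, 2 and 3, and 4.52, 4.46 and 5.24 on PTH arrays 1, 2 and 3. Control array 2 was the lowest of its group and lay just under PTH array 3, the highest of its group, so that the groups overlapped by this 1 pair. The probe was above background on all 3 control arrays and only on PTH array 3. Before any normalization its signal was 157, 144 and 177 in control tubes, where the median of all probes of the array was 117, 129 and 111. In PTH tubes it was 105, 102 and 146, where that median was 112, 114 and 124.

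The mean log2 signal of *Sost* was 5.95 ± 0.64 (SD, n = 3) in control and 4.74 ± 0.43 (SD, n = 3) in PTH tubes. The log2 change was -1.21 (SE 0.34), with a 95% interval of 0.251 to 0.741 times the control signal. The adjusted p in limma was 0.15 and the unadjusted p 0.00732. An exact two-sided permutation test gave p = 0.2, where 3 against 3 arrays cannot go below 0.1. With 1 array left out the change lay between -1.59 and -0.96, with an adjusted p of 0.067 to 0.355 in limma. It was larger without either array of the overlapping pair, at -1.59 without control array 2 and -1.38 without PTH array 3, and smaller without any of the others. Without background correction the adjusted p in limma was 0.0287, with a change under the fold minimum, and with median scaling it was -1.11 with an adjusted p of 0.0166, which passed both.

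Several markers of osteocytes fell with PTH in these tubes. Of the 6 osteocyte markers tested 3 were called, all lower, namely *Mepe*, the PTH receptor gene *Pthr1* and *Tnfrsf11b*, and *Pdpn* was the only one of the 6 with a higher mean. The summed signal of the 6, on the linear scale, ranged from 10510 to 11870 on control and from 7105 to 8189 on PTH arrays. In such a bulk sample fewer cells of a type and less RNA per cell cannot be told apart. Of 7 osteoblast markers tested, 2 were called and both fell, *Ibsp* with a log2 change of -2.01 and *Sp7* with -0.81, and the summed signal of the 7 ranged from 35310 to 36360 on control and from 23900 to 25230 on PTH arrays. Of 8 neutrophil and macrophage markers tested, 2 were called and both fell, the neutrophil genes *Mpo* with -0.91 and *Ltf* with -0.72. The macrophage markers *Cd68*, *Csf1r* and *Adgre1* (listed as Emr1) had log2 changes of -0.02, -0.04 and -0.27 and were not called. The sum of the 8 ranged from 52140 to 52840 on control and from 34820 to 39390 on PTH arrays. Its brightest genes, *S100a8* and *S100a9*, weigh most in it. They had log2 changes of -0.43 and -0.59 and were not called (limma adjusted p = 0.192 and 0.144). All 8 had a lower mean with PTH. The hemoglobin genes *Hba-a1* and *Hbb-b1*, which mark red cells, had log2 changes of -1.98 and -1.89 (limma adjusted p = 0.000747 and 0.000793). The part of these shifts in the value of *Sost* was not tested.

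*Sostdc1* encodes a relative of sclerostin that binds LRP5 and LRP6 and several BMPs. Its probe lay between 4.36 and 4.87 on the log2 scale over the 6 arrays and was above background on none. No fold change is given for it.

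Dkk1 blocks LRP6 together with Kremen proteins and is made by osteocytes and osteoblasts. *Dkk1* read 5.42, 6.03 and 6.53 in control and 4.97, 5.80 and 5.41 in PTH tubes, where the first was not above background. The groups overlapped, since PTH array 2 lay within the range of the controls and PTH array 3 just under its lower end. The means were 5.99 ± 0.56 (SD, n = 3) and 5.39 ± 0.42 (SD, n = 3), with a log2 change of -0.60 (SE 0.31, 95% interval -1.32 to 0.12, limma adjusted p = 0.429). This interval includes no change as well as a decrease larger than 2-fold. The change was under 1.5-fold with every other normalization run, from -0.58 with cyclic loess to -0.23 without background correction, and lay between -0.91 and -0.33 with 1 array left out.

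Dkk2 acts on the same co-receptor. The *Dkk2* probe lay between 4.40 and 4.84 on the log2 scale and was above background on no array. A missing signal on such a probe bounds the transcript at the background of the array and does not show that it was absent.

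Dkk3 is a divergent Dickkopf protein that does not bind LRP6 in the way of Dkk1. Its brightest probe, ILMN_2852957, read 9.41, 9.51 and 9.56 in control and 9.81, 9.84 and 10.00 in PTH tubes. A further probe, ILMN_2746556, had a signal before normalization of 500.2, 675 and 691 in control and 785, 849 and 1349 in PTH tubes, and normalized log2 means of 9.14 ± 0.13 and 9.68 ± 0.15 (SD, n = 3). On both probes every PTH array was above every control array. The log2 changes were 0.40 (SE 0.12, 95% interval 0.11 to 0.68) and 0.54 (SE 0.14, 95% interval 0.22 to 0.86), with adjusted p of 0.192 and 0.122 in limma, and neither reached 1.5-fold. Without background correction both probes had an adjusted p under 0.05 in limma, at 0.0312 and 0.00699, and both stayed under 1.5-fold. ILMN_2746556 passed 1.5-fold with median scaling (0.70), without PTH array 2 (0.62) and without control array 3 (0.60). Its adjusted p in limma was then 0.437, 0.157 and 0.182. The third probe of the gene, ILMN_1224173, was above background on no array.

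**Figure D2:**
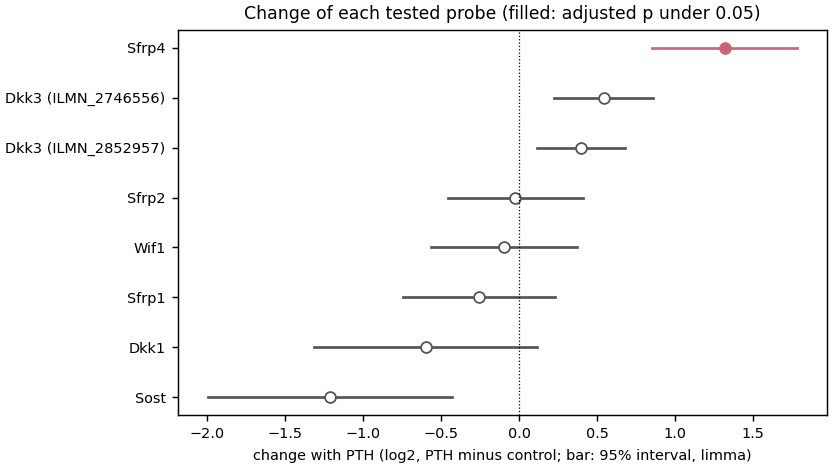
Log2 change of each tested probe of the Wnt antagonists, PTH minus control (horizontal axis), with its 95% interval from limma. The filled point has an adjusted p under 0.05 and belongs to *Sfrp4*, at 1.31, while *Sost*, at -1.21, has the widest interval of the 8 probes.

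The secreted Frizzled-related proteins carry a cysteine-rich domain like that of the Frizzled receptors and hold Wnts away from them. Of the 4 genes of this family examined, *Sfrp4* was called and was higher with PTH, *Sfrp1* and *Sfrp2* were tested and not called, and *Frzb* was at the background.

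*Sfrp4*, whose loss in people causes Pyle disease with thin cortical bone, read 8.92, 9.26 and 9.39 in control and 10.21, 10.45 and 10.85 in PTH tubes. Every PTH array was above every control array. The same was seen in the signal before normalization, which was 482, 706 and 751 in control and 1048, 1530 and 2651 in PTH tubes. The means were 9.19 ± 0.25 (SD, n = 3) and 10.50 ± 0.32 (SD, n = 3).

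The log2 change of *Sfrp4* was 1.31 (SE 0.20, 95% interval 0.85 to 1.78), which is 2.49-fold with an interval of 1.80 to 3.43, with an adjusted p of 0.0232 in limma. It stood at rank 140 among the 16214 probes by p. The exact two-sided permutation test gave p = 0.1, the smallest it can give. The size of the change held when any 1 array was left out, at 1.14 to 1.46, but the call was kept only without PTH array 1. The adjusted p in limma was 0.0988, 0.0883 and 0.0571 without control array 1, 2 and 3, and 0.0367, 0.0838 and 0.0614 without PTH array 1, 2 and 3. After Benjamini-Hochberg adjustment of the methods' t-test it was 0.147.

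*Sfrp4* is also expressed by fibroblast-like cells of the periosteum and connective tissue. Of 12 fibroblast and tendon markers, 8 were tested, 1 was called higher and none lower. That 1 gene was *Col3a1*, a fibrillar collagen of loose connective tissue, with a log2 change of 0.92 (SE 0.14, limma adjusted p = 0.0211). The summed signal of the 8, on the linear scale, ranged from 2345 to 2423 on control and from 2983 to 3308 on PTH arrays, and without *Col3a1* from 1522 to 1638 and from 1517 to 1607. The sum of the other 7 thus overlapped between the groups, but single genes in it moved in opposite directions. *Pdgfra* had a log2 change of 0.59 (limma adjusted p = 0.188) and *Ly6a* 1 of -0.28 (limma adjusted p = 0.372). For both the groups did not overlap. The median log2 change of the list was -0.01, with 4 genes lower and 4 higher in the mean, and *Dpt*, *Pi16* and *Thbs4* were above background on no array. The part of fibroblast-like cells in the value of *Sfrp4* was not tested.

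*Sfrp1*, a broad inhibitor of Wnts in the osteoblast lineage, read 5.28, 5.31 and 5.24 in control and 4.79, 4.76 and 5.52 in PTH tubes. It was above background on all control arrays and on PTH array 3 alone, which was also the highest of the 6. The log2 change was -0.26 (SE 0.21, 95% interval -0.74 to 0.23, limma adjusted p = 0.645). *Sost* had the same pattern of detection.

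*Sfrp2*, whose product occurs in the stroma of many tissues, read 6.15, 6.69 and 6.47 in control and 6.14, 6.49 and 6.61 in PTH tubes. The groups lay over each other and the log2 change was -0.03 (SE 0.19, 95% interval -0.46 to 0.41, limma adjusted p = 0.969). In fold terms the interval runs from 0.729 to 1.33 times the control. *Frzb*, which encodes a Frizzled-related protein first known from cartilage, lay between 4.45 and 4.79 on the log2 scale and was above background on no array.

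Wif1 binds Wnts through a domain of its own and is made by maturing osteoblasts. *Wif1* read 7.47, 7.76 and 7.82 in control and 7.51, 7.26 and 7.98 in PTH tubes, all above background. PTH array 3 was the highest of the 6 and PTH array 2 the lowest. The log2 change was -0.10 (SE 0.20, 95% interval -0.57 to 0.37, limma adjusted p = 0.873).

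PTH array 3 was the highest PTH array for *Sost*, for *Dkk3* on both probes tested, and for all of *Sfrp1*, *Sfrp2*, *Sfrp4* and *Wif1*, but not for *Dkk1*. Its log2 signal exceeded the mean of the other 2 PTH arrays by 0.75 for *Sost*, 0.74 for *Sfrp1*, 0.59 for *Wif1* and 0.52 for *Sfrp4*. Over all genes tested the median of this difference was -0.01, and 80% of genes lay between -0.36 and 0.41. The difference was larger than in 98.4% of genes for *Sost* and in 98.3% for *Sfrp1*. With a term for the arrays numbered 3 in each group, an alternative chosen after the data were seen, the adjusted p in limma was 0.0896 for *Sost* and *Sfrp4* was still called.

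**Figure D3:**
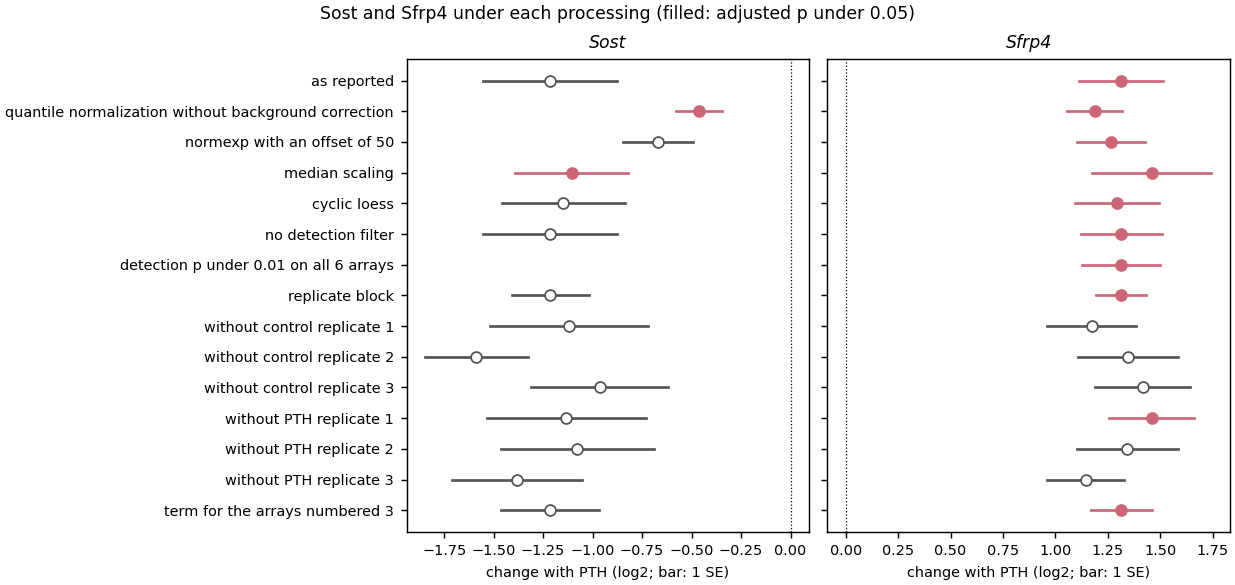
Log2 change of *Sost* and *Sfrp4*, PTH minus control (horizontal axes), under each way of processing the arrays and with each array left out, with 1 SE. Filled points have an adjusted p under 0.05. All values of *Sost* are below 0, from -1.59 to -0.46, and all values of *Sfrp4* are above 0, from 1.14 to 1.46, and *Sost* has no value where all 6 arrays had to be above background.

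The remaining Wnt pathway was described by 76 further genes, of which 75 had a probe and 40 were tested. PTH tubes had lower signals of 3 of them, *Wnt1*, *Wnt10b* and *Tnfrsf11b*, none was called higher and 37 were not called (limma). An unadjusted p under 0.05 was found for 8 of the 40, beside 14.9% of all genes. The methods' t-test called 6 before Benjamini-Hochberg adjustment, 4 lower and 2 higher (*Wnt4* and *Apcdd1*), and 1 after it. The median log2 change of the 40 was -0.09 beside 0.01 over all genes. The called share is 3 of 40 against the 1.73% of all genes given above.

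Of 19 Wnt ligand genes, 6 were tested and 2 were called. *Wnt1*, which is required in the osteoblast lineage for normal bone mass, read 7.09, 7.21 and 6.86 in control and 5.72, 5.59 and 6.10 in PTH tubes. It fell by 1.26 on the log2 scale (SE 0.17, limma adjusted p = 0.0156), and its groups did not overlap. *Wnt10b*, which favours osteoblasts over adipocytes, read 6.74, 6.62 and 6.65 in control and 4.89, 5.12 and 5.87 in PTH tubes, where it was above background on 2. It fell by 1.38 on the log2 scale (SE 0.24, limma adjusted p = 0.0365). Neither call was kept without control array 1 or 2 or PTH array 1 or 2. Among ligands not called, *Wnt4* had a log2 change of 0.66 with an adjusted p of 0.149 in limma and was called with an offset of 50, *Wnt5b* one of -0.20, *Wnt7b* 0.10 and *Wnt5a* -0.07.

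Of 18 receptor and co-receptor genes, 13 were tested, none was called and 0 had an unadjusted p under 0.05 (limma). The smallest unadjusted p belonged to *Kremen1*, the partner of Dkk1, listed on the array as Kremen, with a log2 change of -0.22 (limma adjusted p = 0.442). The next were *Fzd2*, *Fzd3* and *Ryk*, at 0.39, 0.19 and -0.10. The binding partners of sclerostin were looked up for their role after their values were seen. *Lrp5*, *Lrp6* and the anchoring protein gene *Lrp4* had log2 changes of -0.01 (SE 0.26), 0.13 (SE 0.19) and -0.08 (SE 0.19). *Lrp6* was above background on only 1 control and 2 PTH arrays and *Lrp5* on 3 and 2, while *Lrp4* was above it on every array. None of these passed the test, which does not show that they were equal.

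The other secreted or cell-surface inhibitors comprised 9 genes, of which 3 were tested and none was called (limma), with 1 at an unadjusted p under 0.05. This was *Apcdd1*, a membrane inhibitor of Wnt signalling, with a log2 change of 0.68 and an adjusted p of 0.0895 in limma. *Igfbp4*, which can bind Frizzled and LRP6, and *Notum*, which removes the lipid of Wnts and is listed as 5730593N15Rik, had log2 changes of -0.23 and -0.16. *Dkk4* and *Sfrp5*, the missing members of both families, were above background on no array. Of 7 genes of R-spondins and their LGR receptors, which amplify the signal, 2 were tested and neither was called, *Rspo3* (listed as Thsd2) at 0.17 and *Lgr6* at -0.10.

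Of 12 genes for Wnt release and signal transduction with a probe, 9 were tested and none was called (limma), with 2 at an unadjusted p under 0.05, *Porcn* and *Gsk3b*. *Porcn*, which attaches the lipid that Wnts need for release, had a log2 change of -0.54 with an adjusted p of 0.0975 in limma. *Gsk3b* and *Gsk3a*, the kinases that mark β-catenin for degradation, were at -0.36 and -0.27, and *Apc*, a scaffold of the same complex, at -0.27.

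Of 10 genes known as targets of β-catenin, 7 were tested, 1 was called lower and none higher. *Tnfrsf11b*, which encodes the RANKL decoy osteoprotegerin and also stands among the osteocyte markers, read 11.09, 11.33 and 11.14 in control and 9.71, 9.65 and 9.41 in PTH tubes. Its log2 change was -1.60 (SE 0.14, limma adjusted p = 0.00194). *Tcf7* was above background on all 3 control arrays and on no PTH array. Against the detection limit its mean was at least 1.59-fold lower with PTH. This value leaves out the spread between arrays (control SD 0.48), and with a limma adjusted p of 0.167 the gene was not called. *Myc*, *Nkd2* and *Wisp1* had log2 changes of -0.41, -0.23 and -0.18. *Axin2*, the most general readout of the pathway, named here for that role after its value was seen, had a log2 change of 0.04 with SE 0.28 and an adjusted p of 0.964 in limma.

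**Figure D4:**
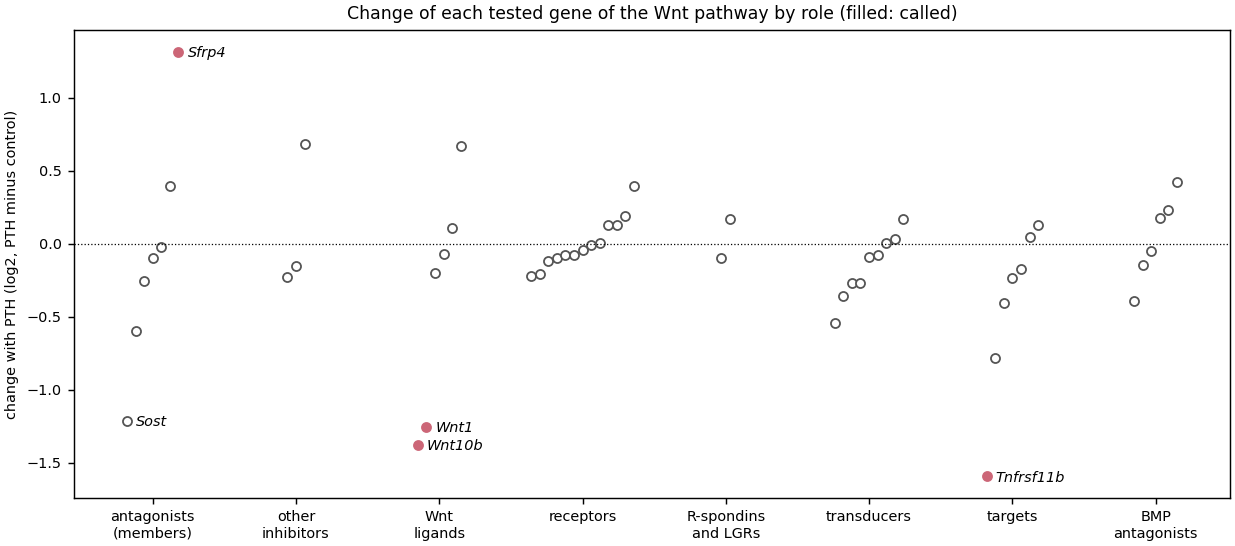
Log2 change, PTH minus control (vertical axis), of each tested gene by its role in the Wnt pathway, with the BMP antagonists at the right; 1 point is 1 gene. Filled points were called, namely *Sfrp4* at 1.31, *Wnt1* at -1.26, *Wnt10b* at -1.38 and *Tnfrsf11b* at -1.60. *Sost* lies at -1.21 and was not called.

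Sclerostin belongs by structure to the DAN family of BMP antagonists, so these were set beside it. Of 9 BMP antagonist genes, 6 were tested and none was called by limma or by the methods' t-test, with 1 at an unadjusted p under 0.05 in limma. That gene was *Grem1*, which encodes gremlin, at 6.33, 6.19 and 6.04 in control and 6.67, 6.46 and 6.69 in PTH tubes. Its log2 change was 0.42 (SE 0.14, limma adjusted p = 0.205). *Nbl1* and *Twsg1* had log2 changes of 0.23 and -0.15.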

How the data were processed

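Cortical bone tubes were cultured with or without PTH, and RNA of each preparation was hybridized to 1 Illumina bead array. The authors deposited the linear signal intensity of each probe, neither normalized nor background subtracted, and the deposited table holds a detection p-value beside each, computed against the array's negative controls. The submitters' processing notes name GenomeStudio. The paper's methods describe quantile normalization and a differential score in that program, which were not used here. Groups came from the sample labels.

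Signals were background corrected by normexp through the detection p-values, given an offset of 16, quantile normalized and taken to log2 (neqc, limma 3.58.1, R 4.3.3). Of 45281 probes, 16214 had a detection p under 0.05 on at least 3 arrays and were fitted with lmFit and eBayes. p-values were adjusted over all of them, and each of 11979 genes was represented by its brightest tested probe. A gene was called at an adjusted p under 0.05 and a change of at least 1.5-fold. The procedure was tested on simulated data. Background correction near the detection limit stretches differences between weak signals, and quantile normalization assumes a like distribution of signal on all arrays.

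The genes, the pathway, BMP antagonist and marker lists were chosen with earlier results of these data known. Named beside the 10 genes are the called genes of each list and at most 4 more with the smallest unadjusted p, and, for *Sost*, *Dkk1* and *Sfrp4*, the 3 genes with the nearest profile. Some genes that this rule names are not reported here. Current gene names and promoter windows came from RefSeq (GRCm38.p6). Probe sequences were not used. Alternatives were other normalizations, filters and thresholds, averaged probes, a replicate block, omission of single arrays and a plain t-test. A term for the arrays numbered 3 was added after the data were seen. The paper lists a t-test for comparing a pair of groups, but for its arrays it describes the differential score.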

Additional observations from a re-analysis of the deposited data

How the results depend on the processing

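*Sfrp4* was higher and *Sost* lower with PTH under every alternative that gave a value. The call of *Sfrp4* held under all other normalizations, filters and thresholds run. The number of the 10 genes called, however, was 2 with median scaling, where *Sost* was added and all probes shared 1 SE. The number was 0 with the plain t-test after Benjamini-Hochberg adjustment, and 0 to 1 with 1 array left out. It was 0 without control array 1, 2 or 3 and without PTH array 2 or 3. Fewer arrays were then fitted. Over all genes, 207 were called, 104 with median scaling and 48 to 78 with 1 array left out. The plain t-test called 506 unadjusted and 68 adjusted. With median scaling the median log2 change of all genes was 0.12, in place of 0.01.

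Of the 3 other Wnt pathway genes called, *Tnfrsf11b* was called under every alternative. The number was 1 with the replicate block, 1 with the plain t-test adjusted and 6 with it unadjusted. With 1 array left out it was 1 to 3. *Wnt1* and *Wnt10b* were both lost without control array 1 or 2 or PTH array 1 or 2, and *Wnt10b* also without control array 3. *Wnt10b* was lost without background correction (2 called) and with no detection filter (2). A gene was called higher with an offset of 50 (*Wnt4*, 4 called in all) and, for *Apcdd1*, with a detection p under 0.01 on all arrays (3, without *Wnt10b*) or an adjusted p under 0.10 (4). No BMP antagonist was called under any alternative. The sign of *Sfrp2* turned to 0.065 with median scaling and lay between -0.17 and 0.11 when single arrays were omitted, positive without control array 2 (0.10) or PTH array 1. That of *Wif1* turned to 0.011 with median scaling and ranged from -0.30 to 0.063, positive without PTH array 2. Neither had been called, and the cause was not tested.

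The replicate block left *Sfrp4* called (limma adjusted p = 0.0308) and *Sost* not (0.0853), while over all genes it left 44 called. Arrays of the same number deviated together with correlations of 0.067, 0.064 and 0.27. Not every array correlated best with its own number, so the numbers were not taken as a pairing. The largest of these, 0.27, was that of the arrays numbered 3. Their values with the arrays of other numbers were -0.13 or -0.14. Deviations from a group mean cancel out within the group, so these values largely follow from the 0.27 and add little to it. The arrays numbered 3 also had the most probes above background, 17369 in control and 17374 in PTH.

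With a detection p under 0.01 asked on all 6 arrays, *Sost*, *Dkk1* and *Sfrp1* could not be tested. They lie near the background, where the change of *Sost* ranged from -1.21 to -0.46 with the background method. A slide effect could not be examined because neither labels nor columns name the slide.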

Other observations

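Among the genes with a profile near that of *Sost* over the 6 arrays, by Euclidean distance of log2 signals centred on their means, were *B230205M03* at 0.59 and *Sgca* at 0.66. Both, like *Sost*, were above background on 3 control arrays and 1 PTH array. Their log2 changes were -1.02 and -1.06, and *Sgca* was called (limma adjusted p = 0.0468). Nearest to *Sfrp4* were *Akr1c18*, which encodes a hydroxysteroid dehydrogenase, at 0.45, *LOC386112* at 0.45 and *Hs3st1*, a heparan sulfate sulfotransferase gene, at 0.53. All 3 were called higher with PTH, with log2 changes of 1.33, 1.11 and 1.13. Nearest to *Dkk1* were *C230080I20Rik* at 0.40, *Phf8* at 0.45 and *LOC226864* at 0.50, none of them called. These profiles were ranked on 6 arrays and share the contrast with the gene they are near.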
